A study of Mus musculus with 6 samples.

Results

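The 10 genes described here encode proteins known to bind the water channel aquaporin 2 (AQP2, gene Aqp2) or to act in its endocytosis and ubiquitination. They are Mal, Hspa8, Hspa5, Sipa1l1 and Vta1, whose products bind AQP2 or handle it along its route, and Nedd4, Nedd4l, Itch, Ndfip1 and Ndfip2, which are ubiquitin ligases and their adaptors. They were chosen by name from what is known of AQP2, with earlier results of these data known. They are 10 of 18193 genes named on the array. Among the probe sets of a gene the brightest on average stood for it, and all 10 passed the filter on low signal. RNA was measured on 6 Affymetrix arrays, 1 per line, in mpkCCD cells, a mouse kidney line of the cortical collecting duct. The lines were clone 2, labelled as not expressing AQP2, and 5 AQP2-expressing lines, which were clones 3, 9, 10 and 11 and the original mpkCCDc14 cells, named a clone in their own title. The study's design text calls the original cells the parent cells. Every line had been given dDAVP, a vasopressin analog, for 5 days at 0.1 nM, so no untreated line was compared. The study looked for transcripts that go with Aqp2 across lines, and whether any of the 10 genes does so is the question followed here.

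Vasopressin moves AQP2 from vesicles into the apical membrane of principal cells, where it lets water through, and when the hormone is withdrawn the channel is taken back by clathrin-coated pits. Ubiquitin attached to the tail of AQP2 marks it for endocytosis and for sorting into multivesicular bodies, which deliver it to lysosomes. Ubiquitin ligases of the NEDD4 family recognise targets through short proline-rich motifs, and since AQP2 lacks such a motif they need adaptors such as NDFIP1 and NDFIP2. These steps act on protein, and the arrays measured RNA alone.

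Each line had a single array, so the p-values rest on the spread between lines, in which clone, culture and array cannot be told apart. Nor can fewer cells with a transcript be told apart from less of it per cell. Clone 2, the only line labelled as not expressing AQP2, was assumed to vary like the other lines. Aqp2 itself had a signal of 159.3 in clone 2, then 1066.4 (clone 10), 1697.9 (clone 3), 3822.4 (original cells), 4683.4 (clone 9) and 6577.7 (clone 11), a log2 range of 5.21. Of 12 principal cell markers, 10 passed the filter (Aqp4 and Kcnj1 did not). The signal summed over the list was 12451 in clone 2, against 21491 to 28505 in the expressing lines. That list includes Aqp2 itself, and its members went different ways. Clone 2 was below all expressing lines for Scnn1a, Scnn1g, Fxyd4, Gata3, Hsd11b2 and Tfcp2l1. It was above them for Aqp3 (191.9 against 96.4 to 150). For Avpr2 (1741.9 against 1416.6 to 1745.8) and Scnn1b (193.6 against 96.6 to 507.4) it lay within their range. None of the markers of the loop of Henle and distal tubule, fibroblasts, or endothelium and leukocytes passed the filter, while 2 of 7 intercalated cell markers (Atp6v1b1 and Aqp6) and 1 of 6 proximal tubule markers (Lrp2) did. The intercalated list summed to 1112 in clone 2 and 776 to 1108 in the expressing lines, while its members went opposite ways, Atp6v1b1 with 949.3 in clone 2 against 413 to 687.3 and Aqp6 with 39 in clone 2 against 221.8 to 328.1. The proximal list summed to 292 in clone 2 and 938 to 1242 in the expressing lines, and the part of these markers in the results below was not tested. The median signal of an array lay between 79.6 and 88.6, and the highest signal on an array followed the order of Aqp2, with 35549 in clone 2, 38716 (clone 10), 40544 (clone 3), 42488 (original cells), 45213 (clone 9) and 46974 (clone 11). The ratio of 3′ to 5′ signal of beta-actin, a sign of RNA quality, was 1.72 in clone 2 and 1.58 to 1.76 in the expressing lines.

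Hspa5 was the only one of the 10 genes that passed the test for a slope on Aqp2, and it did so in the same direction as Aqp2. Of all genes 2.22% passed, 1.22% with a positive slope. Hspa5 encodes BiP, the HSP70 chaperone of the endoplasmic reticulum that helps membrane proteins fold and that also binds AQP2. Nedd4 and Hspa8 had positive slopes that did not pass the test, and the 7 others showed slopes between -0.09 and 0.07. None of the 10 passed the test of clone 2 against the expressing lines, which 3.14% of all genes passed.

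**Figure D1:**
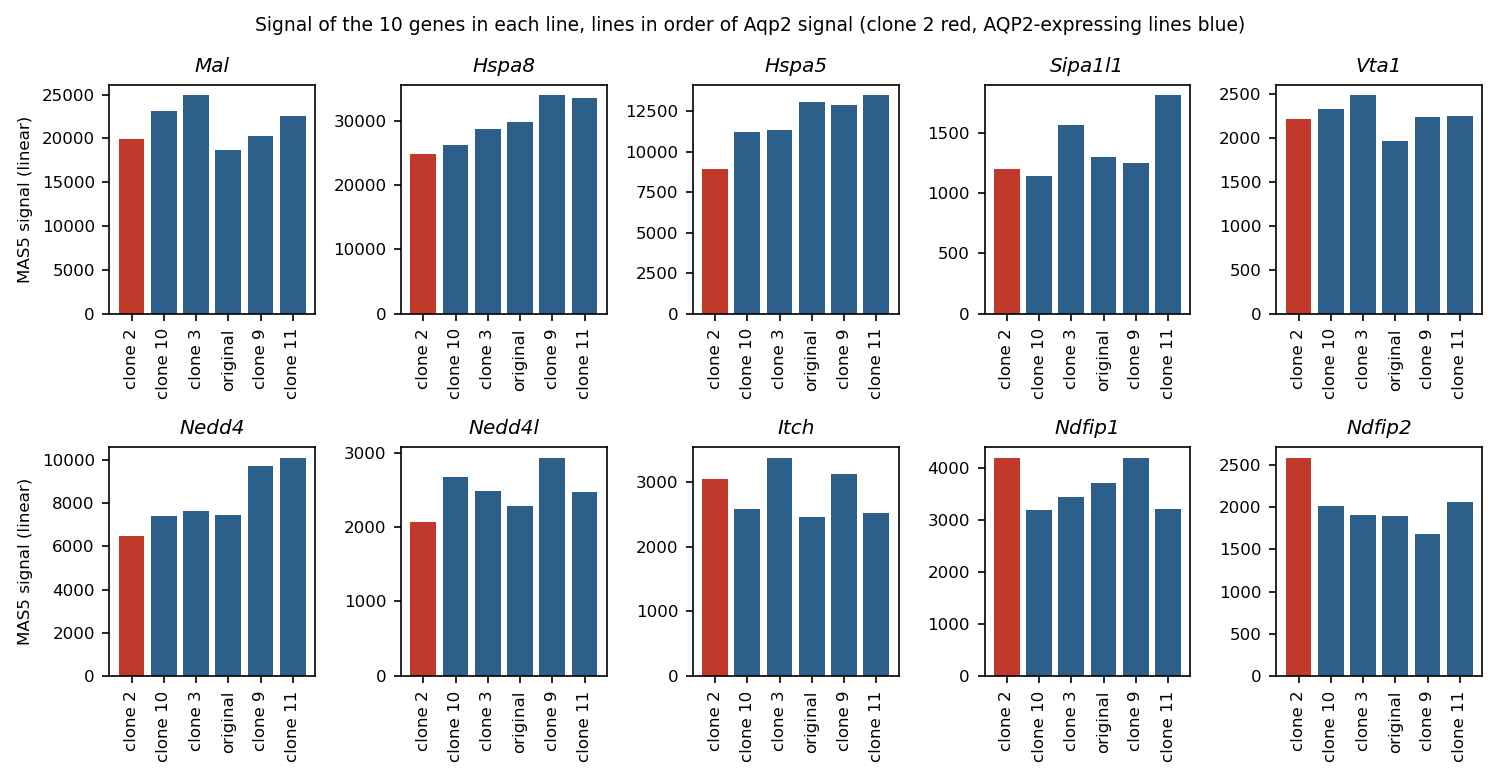
MAS5 signal (linear axis from 0) of the brightest probe set of each of the 10 genes, 1 bar per line, with the lines in order of Aqp2 signal from clone 2 to clone 11. Hspa5, Hspa8 and Nedd4 are lowest in clone 2 and highest in clone 9 or clone 11, Ndfip1 and Ndfip2 are highest in clone 2, and Mal, Sipa1l1, Vta1 and Itch have clone 2 within the range of the expressing lines.

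Among the proteins that meet AQP2 at the membrane, Mal is a raft-associated membrane protein that binds AQP2 and slows its internalisation. Mal had a signal of 19882 in clone 2, against 23086.7 (clone 10), 24904.8 (clone 3), 18643 (original cells), 20325.7 (clone 9) and 22500.3 (clone 11). Clone 2 lay inside the range of the expressing lines, and the lowest signal was that of the original cells. Clone 2 differed by -0.13 log2 (SE 0.146, limma adjusted p = 0.657, 95% confidence interval -0.46 to 0.20). The slope on Aqp2 was 0.004 per log2 unit (SE 0.0316, limma adjusted p = 0.961).

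Hspa8 encodes hsc70, the constitutive HSP70 chaperone that strips clathrin from coated vesicles and binds the tail of AQP2. Its brightest probe set read 24790.6 in clone 2, against 26265.7 (clone 10), 28677.2 (clone 3), 29762.4 (original cells), 33959 (clone 9) and 33572.8 (clone 11). Clone 2 was the lowest, and only clones 9 and 11 exchanged places relative to the order of Aqp2. Clone 2 differed by -0.29 log2 (SE 0.14, limma adjusted p = 0.287), with a 95% confidence interval of -0.61 to 0.03. The slope on Aqp2 was 0.088 (SE 0.0202), which missed the threshold (limma adjusted p = 0.0624) and passed it with a filter at the 75th percentile of signal (adjusted p = 0.038). With quantile normalization the slope was 0.028 (adjusted p = 0.471).

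Of the 4 probe sets of Hspa8, 1 had a slope opposite in sign to the rest, a split noticed after the values were seen. The third by signal had 11926.7 in clone 2, against 11014.8 (clone 10), 9734.4 (clone 3), 7989.8 (original cells), 7608.6 (clone 9) and 7144.5 (clone 11). That is the exact reverse of the order of Aqp2. Its slope was -0.149 (SE 0.0275, limma adjusted p = 0.0379), a call lost with no filter (adjusted p = 0.101), without the mean-variance trend (0.125) and without clone 3 (0.0626), clone 9 (0.0573), clone 11 (0.113) or the original cells (0.0856). Its r with the brightest Hspa8 probe set was -0.96 over the 6 lines. The second probe set had a slope of 0.044 (limma adjusted p = 0.439) and the fourth 0.037 (adjusted p = 0.795). Both of the brightest Hspa8 probe sets carry the x suffix, by which Affymetrix marks probes that may match other transcripts, and which transcripts each probe set detects was not tested. The direction of Hspa8 RNA along Aqp2 therefore differed between probe sets of the gene.

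For Hspa5, the brightest probe set gave 8938.7 in clone 2, against 11205.5 (clone 10), 11378.3 (clone 3), 13063.5 (original cells), 12886.9 (clone 9) and 13487 (clone 11). Clone 2 was below all 5 expressing lines, which averaged 12404 ± 1040 (SD, n = 5). The original cells and clone 9 exchanged places relative to the order of Aqp2. The slope on Aqp2 was 0.114 per log2 unit (SE 0.0202, 95% confidence interval 0.069 to 0.160, limma adjusted p = 0.0335), which amounts to 0.60 log2 over the range of Aqp2. Within the 5 expressing lines alone the slope was 0.111, at an unadjusted p of 0.0173 and a limma adjusted p of 0.334, so the size was nearly the same and the call was not made. Clone 2 differed by -0.47 log2 (SE 0.13, limma adjusted p = 0.0942). The highest signal of an array also followed Aqp2. With quantile normalization, which gives all arrays the same highest signal, the slope of Hspa5 was 0.112 (limma adjusted p = 0.0372). With median centring of each array it was 0.103 (limma adjusted p = 0.0569). The part of array scaling in this slope was not tested.

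The call for Hspa5 depended on the settings, being made in 8 of 15 fits. It was lost with no filter (limma adjusted p = 0.114), with median centring of each array (0.0569), without the mean-variance trend (0.146), and without clone 3 (0.0626), clone 11 (0.0964) or the original cells (0.0763). Its second probe set had a slope of 0.044 (limma adjusted p = 0.442) and the third 0.053 (adjusted p = 0.516), both positive and neither past the test. Within the expressing lines the slope was -0.024 for the second and 0.069 for the third. Those probe sets had an r of 0.68 and 0.65 with the brightest one over the 6 lines. All 3 were lowest in clone 2, though for the third clone 2 (629.7) and clone 3 (630.3) were nearly equal.

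The promoter of Hspa5 is shown because it is the gene that passed the slope test, beside that of Aqp2, the gene it was set against, and the first listed start of Nedd4, the ligase with the largest slope among the 10 genes. The sequences are RefSeq's, from assembly GRCm38.p6, each the 250 bases before a transcription start read 5′ to 3′ on the gene's strand. The Hspa5 window lies at chr2:34771840-34772089 (+), Aqp2 at chr15:99578806-99579055 (+) and Nedd4 at chr9:72662081-72662330 (+). Capitals mark, on either strand, the CCAAT box (CCAAT), the endoplasmic reticulum stress element (CCAAT and CCACG with 9 bases between them, so that it contains a CCAAT box), the full cAMP response element (TGACGTCA) and its core (TGACG, contained in the full element).
Hspa5: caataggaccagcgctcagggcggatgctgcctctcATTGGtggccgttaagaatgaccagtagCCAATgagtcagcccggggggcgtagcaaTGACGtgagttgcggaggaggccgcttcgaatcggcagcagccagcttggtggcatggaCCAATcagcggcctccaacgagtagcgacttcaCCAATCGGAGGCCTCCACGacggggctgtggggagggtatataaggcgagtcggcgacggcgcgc
Aqp2: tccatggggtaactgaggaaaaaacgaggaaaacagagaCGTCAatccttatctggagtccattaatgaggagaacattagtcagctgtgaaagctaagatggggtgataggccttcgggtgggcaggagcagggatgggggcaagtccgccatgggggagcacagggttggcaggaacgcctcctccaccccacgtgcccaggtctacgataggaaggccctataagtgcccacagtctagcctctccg
Nedd4: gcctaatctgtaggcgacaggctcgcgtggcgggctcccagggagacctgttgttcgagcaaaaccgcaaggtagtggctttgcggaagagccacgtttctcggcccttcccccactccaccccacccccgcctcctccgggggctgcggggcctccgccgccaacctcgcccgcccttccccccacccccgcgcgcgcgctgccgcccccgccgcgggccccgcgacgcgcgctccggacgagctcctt

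The Hspa5 window held 1 endoplasmic reticulum stress element, starting 65 bases before the start, 4 CCAAT boxes (1 of them within that element) and 1 core of the cAMP response element, 157 bases before the start. The Aqp2 window held 1 such core, 211 bases before the start, and no CCAAT box. The Nedd4 window shown held none of these letters, while that of its other listed start, at chr9:72693048-72693297 (+), held 1 core 50 bases and 1 CCAAT box 190 bases before the start. Over 32851 promoter windows of the same length, 0.113% held the stress element, 33.8% a CCAAT box, 17.8% the core and 1.55% the full element. Of the 10 genes, 6 had a window in the table used, and the motifs were chosen after the values had been seen. A match is a description of letters and was set against no binding data.

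**Figure D2:**
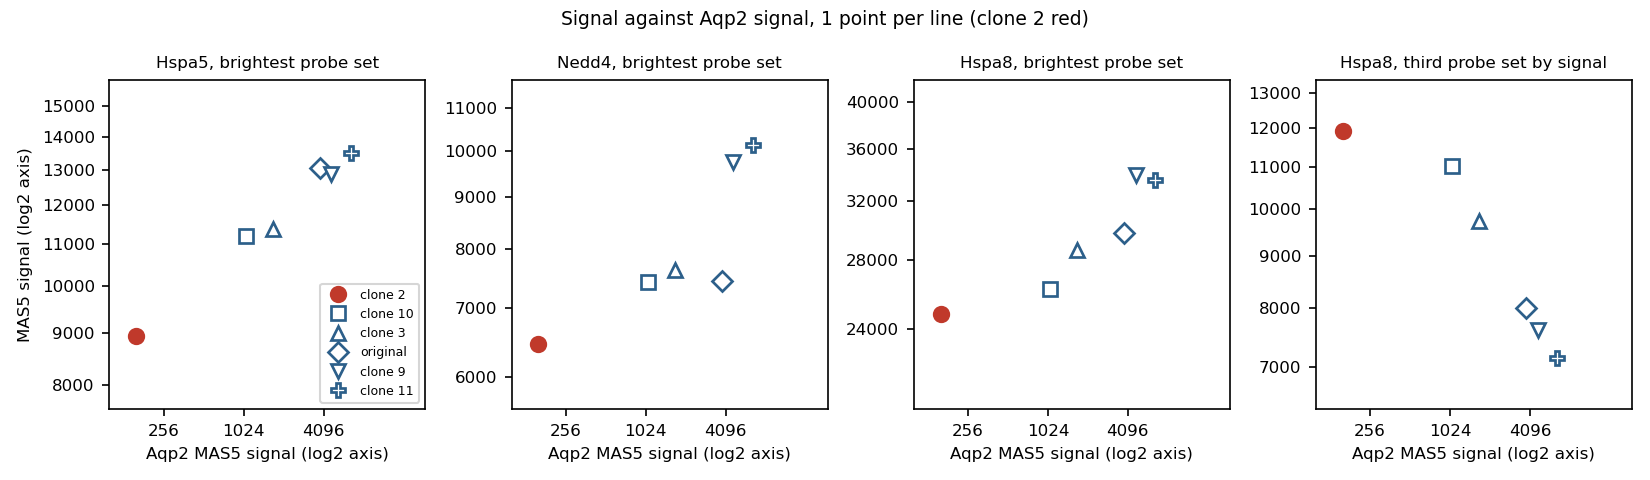
MAS5 signal of Hspa5, Nedd4 and 2 probe sets of Hspa8 against that of Aqp2, both on log2 axes, 1 point per line with clone 2 filled in red and the 5 AQP2-expressing lines open in blue. Hspa5 is highest where Aqp2 is highest and lowest in clone 2, Nedd4 is level at 7425.5 to 7642.8 in clones 10 and 3 and the original cells and higher in clones 9 and 11, and the third Hspa8 probe set descends.

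Sipa1l1 encodes a GTPase-activating protein for Rap of the SPA-1 family, which bears on the actin around AQP2 and on its endocytosis. Its signal was 1202.3 in clone 2, against 1140.5 (clone 10), 1566.2 (clone 3), 1296.7 (original cells), 1247.6 (clone 9) and 1809.5 (clone 11). Clone 2 lay inside the range of the expressing lines, and clones 3 and 11 stood above the rest. Its log2 range over the lines, 0.66, was the widest of the 10 genes. Clone 2 differed by -0.21 log2 (SE 0.238, limma adjusted p = 0.664), and the slope on Aqp2 was 0.070 (adjusted p = 0.464). Of its 4 probe sets the 3 others had clone 2 differences above 0, up to 0.34, so its direction in clone 2 hung on the probe set taken.

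Vta1 encodes LIP5, which binds AQP2 and assists VPS4, the enzyme that completes sorting into multivesicular bodies. It had 2218.1 in clone 2, against 2323.6 (clone 10), 2481.3 (clone 3), 1957.8 (original cells), 2237.8 (clone 9) and 2244.7 (clone 11). Clone 2 was close to the mean of the expressing lines, 2249 ± 190 (SD, n = 5). The log2 difference was -0.02 (SE 0.155, limma adjusted p = 0.969), with a 95% confidence interval of -0.37 to 0.34. The slope was -0.011 (limma adjusted p = 0.888).

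Of the 3 ligases among the 10 genes, Nedd4 had the highest r with Aqp2. Nedd4 had 6465.1 in clone 2, against 7425.5 (clone 10), 7642.8 (clone 3), 7444.4 (original cells), 9741.9 (clone 9) and 10115.1 (clone 11). Clone 2 was the lowest, clones 10 and 3 and the original cells lay between 7425.5 and 7642.8, and clones 9 and 11 were higher. The SD between the expressing lines was 1337 (n = 5). The slope was 0.110 (SE 0.0317), or 0.57 log2 over the range of Aqp2, and missed the threshold (limma adjusted p = 0.103). Among the expressing lines alone the slope was 0.162, at an unadjusted p of 0.0247 and a limma adjusted p of 0.362. The clone 2 difference was -0.38 (SE 0.191, limma adjusted p = 0.308, 95% confidence interval -0.81 to 0.06). Unlike those of Hspa8, its 3 probe sets ran together, with slopes of 0.110 to 0.132 and an r of 0.99 and 0.90 with the brightest, and quantile normalization left the slope at 0.112.

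Nedd4l encodes the close relative NEDD4-2, best known for removing the epithelial sodium channel from the membrane of the same cells. Its signal was 2070.5 in clone 2, against 2667.9 (clone 10), 2488.7 (clone 3), 2289.4 (original cells), 2932.7 (clone 9) and 2471.5 (clone 11). Clone 2 was below every expressing line. The log2 difference was -0.30 (SE 0.158, limma adjusted p = 0.317), and all 4 of its probe sets past the filter were lowest in clone 2, with differences between -0.97 and -0.30. The most negative of these was a dim probe set with 155.9 in clone 2 and 324 ± 34.9 in the expressing lines (SD, n = 5), at a limma adjusted p of 0.0558. Along Aqp2 the slope was 0.054 (adjusted p = 0.454) over the 6 lines and -0.009 within the expressing lines. The other 2 of its 6 probe sets did not pass the filter.

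Itch encodes a further HECT ligase of the NEDD4 family. It read 3054.6 in clone 2, against 2595 (clone 10), 3384.4 (clone 3), 2471.4 (original cells), 3125.6 (clone 9) and 2528.7 (clone 11). Clone 2 lay inside the range of the others, and clones 3 and 9 were above it. Its difference was 0.13 (SE 0.191, limma adjusted p = 0.755) and its slope -0.033 (adjusted p = 0.698).

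By their brightest probe sets the adaptors were both highest in clone 2, without passing the test. Ndfip1 had 4190.9 in clone 2, against 3178.1 (clone 10), 3431.6 (clone 3), 3710.4 (original cells), 4189.7 (clone 9) and 3197 (clone 11). Clone 2 exceeded clone 9 by about 1 unit of signal, so the groups barely separated. Its log2 difference was 0.25 (SE 0.168, limma adjusted p = 0.442), and its slope was -0.031 over the 6 lines (adjusted p = 0.708) and 0.060 within the expressing lines. The second Ndfip1 probe set was also highest in clone 2 (2599). The third was highest in clone 9 (2206.4, against 1910.6 in clone 2).

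Ndfip2 had 2588.3 in clone 2, against 2012.3 (clone 10), 1910.3 (clone 3), 1901.4 (original cells), 1686.3 (clone 9) and 2067.2 (clone 11). Clone 2 stood above all expressing lines, by more than their SD of 146 (n = 5). The log2 difference was 0.43 (SE 0.152, 95% confidence interval 0.09 to 0.78), at an unadjusted p of 0.0191 and a limma adjusted p of 0.161. Its slope of -0.085 (SE 0.0354) had a limma adjusted p of 0.222. The second probe set of Ndfip2, at 329.2 in clone 2 and 364 ± 30 in the expressing lines (SD, n = 5), had a difference of the opposite sign (-0.13).

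**Figure D3:**
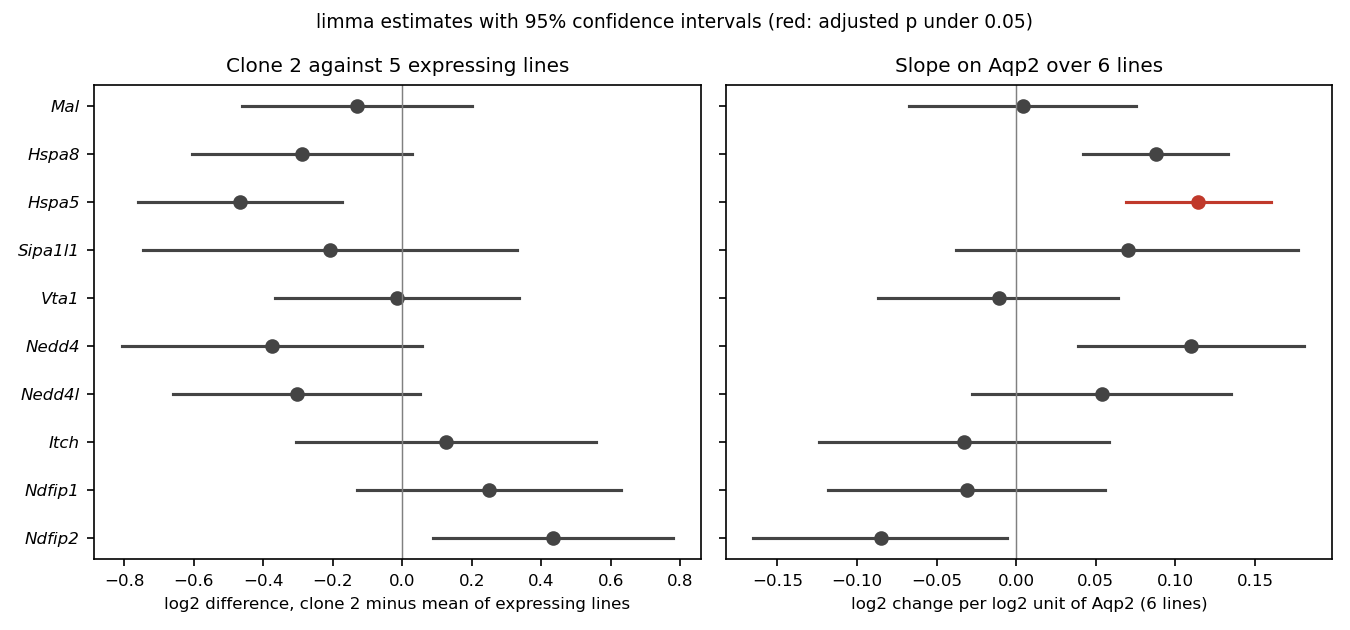
limma estimates (points) with 95% confidence intervals (bars) for the 10 genes, on the left the log2 difference of clone 2 from the expressing lines and on the right the log2 change per log2 unit of Aqp2 over 6 lines. Red marks an adjusted p under 0.05, which Hspa5 alone reaches, on the right with 0.114.

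Clone 2 was set against the expressing lines to ask which of the 10 genes separate it from them. With limma and adjustment over all probe sets, 0 of the 10 passed, against 3.14% of the 10342 genes tested. At an unadjusted p under 0.05 there were 2, Hspa5 and Ndfip2, near the 22.3% of all genes at that level. The median difference of the 10 was -0.17, beside 0.01 over all genes, with 7 negative and 3 positive. Clone 2 lay outside the range of the expressing lines in 6 of the 10, below it for Hspa8, Hspa5, Nedd4 and Nedd4l and above it for Ndfip1 and Ndfip2. Over all genes the share was 55.9% (26.9% below and 29.0% above), so the count for the 10 was near the background.

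The slope test passed 1 of the 10, Hspa5, against 2.22% of 10341 genes (1.22% with a positive slope). At an unadjusted p under 0.05 there were 4, Hspa5, Hspa8, Nedd4 and Ndfip2, beside 22.1% of all genes. The median slope of the 10 was 0.029, beside -0.001 over all genes. Within the 5 expressing lines 0 of the 10 passed limma's test, against 0.0193% of all genes, and 3 had an unadjusted p under 0.05, as had 12.9% of all genes. The residual degrees of freedom were 4 in the fits over 6 lines and 3 in the fit over the expressing lines.

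Hspa5 also had the highest correlation with Aqp2 of the 10. It reached r = 0.99 (exact permutation p = 0.00278) and rho = 0.94 (exact p = 0.0167) over 6 lines, and 4 of the 10341 genes had a higher r. Those values are of the brightest Hspa5 probe set. Without clones 2 and 11, the lines farthest from the median of Aqp2, its r was 0.96. The other Hspa5 probe sets had r = 0.66 and 0.61 over the 6 lines. Both turned negative, with r = -0.69 and -0.12 in that order, without clones 2 and 11. Hspa8, by its brightest probe set, had r = 0.92 (exact p = 0.00278) and rho = 0.94 (exact p = 0.0167), and without those lines r = 0.91. The third Hspa8 probe set had r = -0.94 (exact p = 0.00139), and without those lines r = -1.0. The second had r = 0.53, and without those lines r = 0.03. Nedd4 had r = 0.84 (exact p = 0.0236) and rho = 0.94 (exact p = 0.0167), and without those lines r = 0.64. Ndfip2 had r = -0.80 (exact p = 0.0736) and rho = -0.43, and the other 6 had an r between -0.34 and 0.60. An exact p under 0.05 was found for 15.9% of genes, and after Benjamini-Hochberg adjustment over 22517 probe sets none remained, the smallest adjusted p of r being 0.18 and of rho 0.239. For Hspa5 the adjusted p of r was 0.199. The smallest exact p of r that the 720 pairings of 6 lines can give is 0.00139.

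**Figure D4:**
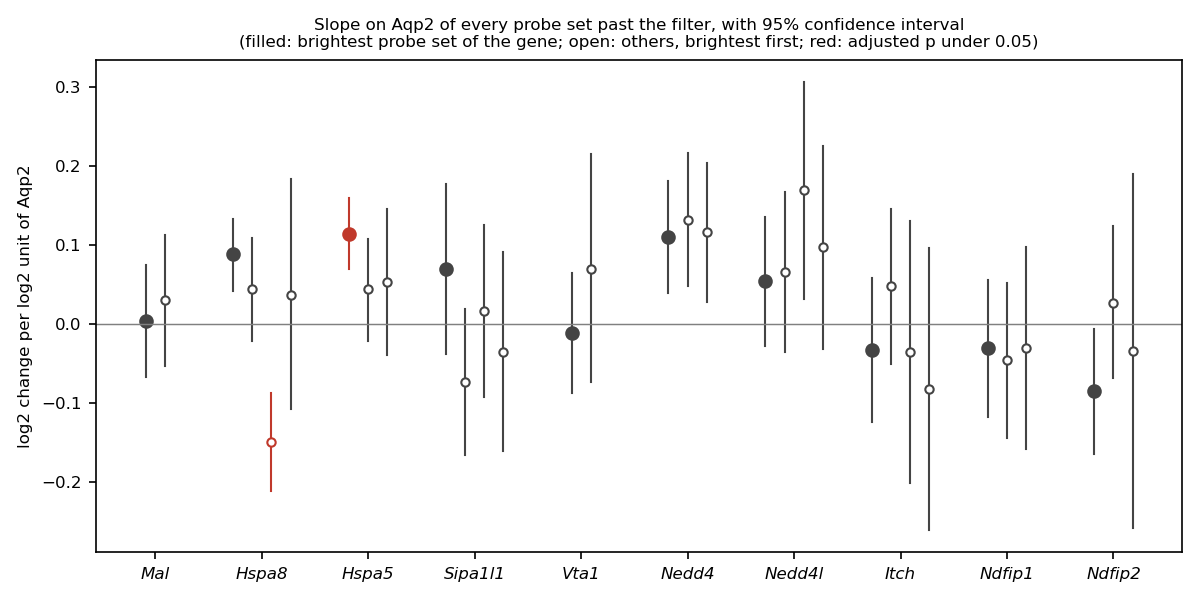
Slope on Aqp2 (log2 per log2 unit) with 95% confidence intervals for all 32 probe sets of the 10 genes past the filter, filled for the brightest of a gene and open for the others, red where the adjusted p was under 0.05. The 3 Nedd4 slopes lie together between 0.110 and 0.132, while those of Hspa8 run from -0.149 to 0.088.

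Some of the 10 varied together. Nedd4 and Hspa8 had r = 0.94 over the 6 lines, Vta1 and Mal 0.90, and Hspa5 and Hspa8 0.88. Others ran in opposite directions, with r = -0.83 for Ndfip2 and Nedd4l, -0.79 for Ndfip2 and Hspa5 and -0.71 for Ndfip2 and Hspa8. All are of the brightest probe sets, and how often other pairs of genes reach such an r was not tested. Each of these correlations joins arrays with a common scaling and is a description. The genes most like Hspa5 among 10340 were Eprn (r = 0.999), Zdhhc6 (0.998), a palmitoyltransferase, and Smim10l1 (0.996). Eprn had 135 in clone 2, against 254.4 (clone 10), 259.9 (clone 3), 373.4 (original cells), 371.7 (clone 9) and 396 (clone 11). Those most like Sipa1l1, the gene of widest range, were Spns3 (r = 0.980), Hadha (0.971), a subunit of the mitochondrial trifunctional protein, and Ubxn8 (0.963).

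Genes of some chromosomes shifted together between the lines. The median clone 2 difference was -0.13 over 811 genes of chromosome 2, which carries Mal, Hspa5 and Itch, and -0.24 over 514 genes of chromosome 10, which carries Vta1. It was 0.22 over 382 genes of chromosome 12, which carries Sipa1l1, 0.07 for chromosome 14 (Ndfip2), -0.02 for chromosome 9 (Hspa8 and Nedd4) and 0.00 for chromosome 18 (Nedd4l and Ndfip1). The difference of Hspa5 (-0.47) was larger in size than the median of its chromosome, and the slopes of Hspa5 (0.114) and Nedd4 (0.110) exceeded the medians of theirs (0.019 and 0.045). The part of these shifts in the differences of the 10 genes was not tested.

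The partners of these proteins were read from 8 lists of 175 genes, of which 165 were measured and 152 passed the filter. Against the expressing lines, 1 rose and 2 fell in clone 2 (1.97%), and along Aqp2 1 rose and 1 fell (1.32%), shares below the 3.14% and 2.22% of all genes. At a limma unadjusted p under 0.05 the shares were 21.1% in the clone 2 test and 23.7% along Aqp2, beside 22.3% and 22.1% of all genes. Within the expressing lines limma called 0, with 26 (17.1%) at an unadjusted p under 0.05, a level that 12.9% of all genes reached. No member was called in either 6-line test in the lists of HSP70 chaperones and partners, with 30 genes past the filter, the SPA-1 family and Rap1 (11), ubiquitin supply and deubiquitinases (18) and other AQP2-binding proteins (11).

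Clathrin endocytosis was represented by 28 genes past the filter, of which 1 rose in clone 2. This was Cltb, a clathrin light chain, with 1695 in clone 2 and 933 ± 62.1 in the expressing lines (SD, n = 5), which is 0.85 log2 higher (SE 0.159, limma adjusted p = 0.0339). The single array of clone 2 was above the highest expressing line (1043.4), as it was for 29.0% of all genes. Cltb lies on chromosome 13, where the median clone 2 difference was 0.20 over 384 genes. The call was lost in 6 of 13 settings, among them without clone 3 (adjusted p = 0.0629), clone 10 (0.0574), clone 11 (0.0671) or the original cells (0.0571). Along Aqp2, the brightest members Ap2m1, a subunit of the AP2 adaptor (slope -0.03, limma adjusted p = 0.6), and Cltc, the clathrin heavy chain (-0.06, adjusted p = 0.192), did not pass.

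In the list of ESCRT and multivesicular body genes, 27 passed the filter and Vps37c, a subunit of ESCRT-I, was called in both tests. It had 918.5 in clone 2, against 1560.4 (clone 10), 1553.4 (clone 3), 1918.2 (original cells), 1775 (clone 9) and 2104 (clone 11). It fell in clone 2 by 0.93 log2 (SE 0.192, limma adjusted p = 0.0442), and its slope was 0.212 (SE 0.0337, adjusted p = 0.0279). The clone 2 call was lost without clone 3 (adjusted p = 0.0574), clone 10 (0.0521), clone 11 (0.0678) or the original cells (0.0952) and with median centring (0.069), and the slope call without clone 11 (0.0851) or the original cells (0.0642). Both calls were lost with no filter and without the mean-variance trend. Vps37c and Marveld1 lie on chromosome 19, where the median clone 2 difference was -0.23 over 378 genes.

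Among 17 other ligases, adaptors and regulators past the filter, 1 fell along Aqp2. This was Arrdc3, an arrestin-like adaptor of NEDD4 family ligases, with 3133.3 in clone 2, against 2444.8 (clone 10), 2570.4 (clone 3), 1932.3 (original cells), 1869.6 (clone 9) and 1678.2 (clone 11). Its slope was -0.168 (SE 0.033, limma adjusted p = 0.044), lost without clone 3 (adjusted p = 0.0605), clone 9 (0.0622), clone 11 (0.12) or the original cells (0.0961), with no filter (0.0859), with quantile normalization (0.0541) and without the mean-variance trend (0.104). Arrdc3 lies on chromosome 13, where the median slope was -0.048. The brightest ligases of that list, Stub1 and Cul3, had clone 2 differences of -0.25 (limma adjusted p = 0.458) and -0.26 (adjusted p = 0.29).

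In the list of the MAL family and caveolae, 10 genes passed the filter and 1 fell in clone 2. Marveld1, whose product shares the MARVEL membrane domain of MAL, had 1945.2 in clone 2 and 3402 ± 272 in the expressing lines (SD, n = 5), and fell by 0.80 log2 (SE 0.147, limma adjusted p = 0.0329). Its call was lost without clone 10 (adjusted p = 0.0541), clone 11 (0.062) or the original cells (0.0806), with no filter (0.0565) and without the mean-variance trend (0.0838). The Marveld1 probe set carries the x suffix, as do the brightest of Hspa8, and which transcripts it detects was not tested. Mal2, a relative of Mal, had a slope of -0.11 (limma adjusted p = 0.415).

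The brightest genes of the uncalled lists gave estimates that did not pass. Hsp90aa1 and Hspa1b, cytosolic heat shock proteins, had clone 2 differences of 0.05 (limma adjusted p = 0.84) and -0.07 (adjusted p = 0.769). Rap1b and Rap1a, the targets of the SPA-1 family, had -0.28 (limma adjusted p = 0.228) and -0.29 (adjusted p = 0.231). Ube2d3 and Ube2e3, ubiquitin-conjugating enzymes, had -0.27 (limma adjusted p = 0.191) and -0.62 (adjusted p = 0.0867). Actb and Actg1, the actins that bind AQP2, had slopes of 0.10 (limma adjusted p = 0.0539) and 0.05 (adjusted p = 0.194).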

How the data were processed

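Biotin-labelled RNA of 6 lines was hybridised to 6 Affymetrix mouse arrays, per the labels' protocols. Per the submitters' processing notes, the authors used MAS5 in Affymetrix Expression Console 1.1, and the deposited signal intensities are linear. Trimmed of its lowest and highest 2%, each array averaged 500. MAS5 subtracts mismatch probes, so low intensities are noisy, and 1 scaling factor per array assumes an equal average signal. Detection calls were not used here.

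Of 45037 probe sets, 34945 had 1 gene in the platform's annotation, 932 several and 9160 none, with symbols updated to GRCm38.p6. Values were log2(signal + 18.85), where 18.85 is the 25th percentile, which understates differences of dim probe sets. A filter on the mean signal at the median, 85.46, left 22518 probe sets. Tests used limma 3.58.1 in R 4.3.3 (lmFit, eBayes with a mean-variance trend), two-sided, with Benjamini-Hochberg adjustment over all probe sets and a threshold of 0.05. The slope's predictor was the log2 Aqp2 value. Correlations were tested over all 720 pairings. The fits were tested on simulated data. Scripts of Python 3.11.15 searched promoter windows.

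The members and lists were chosen with earlier results of these data known. Named genes were the 10 genes, Aqp2, up to 4 called members per list or the 2 brightest where none was called, and the 3 genes most like the members of highest r and widest range. The promoter motifs, the third Hspa8 and dim Nedd4l probe sets and the chaperones of the closing section were picked after their values were seen.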

Additional observations from a re-analysis of the deposited data

How the results depend on the processing

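No paired analysis was possible because the groups hold different lines and share no pairing number beyond the single array of clone 2. Alternatives were offsets of 0 and doubled, no filter, the 75th percentile as filter, robust eBayes or eBayes with no trend, quantile normalization, median centring, the second brightest probe set, and leaving out each expressing line. The count of the 10 genes past the clone 2 test, and past the slope test within the expressing lines, was 0 under all of them. The count past the slope test over 6 lines, 1, became 0 with no filter, median centring, no trend or the second probe set and 2 with the 75th percentile filter, and lay between 0 and 1 when a line was left out. Of the estimates for single genes, 386 kept direction and call, 7 lost the call, all of Hspa5, and 1, of Hspa8, gained it. In the 8 partner lists the 3 clone 2 calls became 0 with no filter or no trend and 2 with median centring, and lay between 0 and 5 when a line was left out, with 1 left without clone 3, 5 without clone 9 and 0 without clone 10, clone 11 or the original cells. Their 2 slope calls became 0 with no filter or no trend and 1 with quantile normalization, and lay between 0 and 3 when a line was left out, with 0 without clone 11 or the original cells.

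Signs reversed in 26 estimates, none of them past the test. With the second probe set the clone 2 difference was 0.342 for Sipa1l1, -0.133 for Ndfip2 and -0.316 for Itch, and the slope was -0.074 for Sipa1l1, 0.070 for Vta1, 0.027 for Ndfip2 and 0.048 for Itch. Within the expressing lines that slope was -0.024 for Hspa5, -0.043 for Sipa1l1, 0.017 for Vta1 and 0.012 for Ndfip2. With quantile normalization Mal had a difference of 0.030 and a slope of -0.031. With median centring Vta1 had a difference of 0.076, Mal a slope of -0.009 and Nedd4l a slope of 0.007 within the expressing lines. Leaving out lines gave differences of -0.064 to 0.021 for Vta1 and slopes of -0.005 to 0.019 for Mal and -0.015 to 0.002 for Vta1. Within the expressing lines those slopes were -0.051 to 0.031 for Nedd4l, -0.187 to 0.020 for Itch and -0.089 to 0.017 for Ndfip2. On linear signal the r of Mal with Aqp2 was -0.13. The cause was not tested.

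Single arrays per line limit precision, since a clone's own spread between cultures was not measured. Of the 34 probe sets of these genes 2, both of Nedd4l, were under the filter.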

Other observations

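Chaperones that work with BiP in the endoplasmic reticulum gave slopes on both sides of 0, and none passed limma's test. These genes were picked from the HSP70 list after their values were seen. Calr, the lectin chaperone calreticulin, had 7714.1 in clone 2, against 8092.9 (clone 10), 10265.8 (clone 3), 10984.4 (original cells), 10467.9 (clone 9) and 10355.8 (clone 11), a slope of 0.099 (limma adjusted p = 0.0927). Hsp90b1, the HSP90 of the same compartment, had a slope of 0.007 (limma adjusted p = 0.921), and Hyou1, a nucleotide exchange factor of BiP, 0.045 (adjusted p = 0.52). Dnajb9, a J-domain partner of BiP, had 2493 in clone 2, against 2044.5 (clone 10), 2120.9 (clone 3), 1983.4 (original cells), 1657.1 (clone 9) and 1663.8 (clone 11), a slope of -0.107 (limma adjusted p = 0.117). Clone 2 was thus lowest for Calr and highest for Dnajb9, as a description of these arrays.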
